A study of Rattus norvegicus with 4 samples.

Results

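Messenger RNA levels in rat kidneys perfused with heparin were compared with those in kidneys perfused with PPS, a supplement that the labels name only by this abbreviation. The comparison rests on 2 of the 4 arrays of the series, 1 for each supplement, and was made by subtracting the deposited log2 value of the PPS array from that of the heparin array for each gene. Of 9393 genes whose value passed a floor of 4.51 on 1 or more arrays, 18 were 2-fold or more higher on the heparin array (0.192%) and 28 were 2-fold or more lower (0.298%), so that 46 genes (0.49%) differed 2-fold or more in either direction. The 18 higher genes included early response and chemokine genes (Egr2, Cxcl2, Ccl3 and Atf3). The 28 lower genes included class I histocompatibility genes (RT1-CE10, RT1-CE5 and RT1-CE12) and matrix genes (Mmp2, Aebp1 and Col1a1). Members of these groups also went the other way. The early response gene Ccn1 was lower, and the class I gene RT1-T24-4 and the matrix gene Fndc1 were higher. The largest differences were those of Akr1b8, which was higher, and Klk1c4, which was lower.

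All kidneys came from male Wistar rats of 300 to 480 g and had 29 min of primary warm ischaemia, followed by 3 h of cold machine perfusion with University of Wisconsin solution, a fluid for organ preservation. The cold array holds kidneys taken at that point. The warm array holds kidneys that also received 30 min of oxygenated perfusion with modified Krebs-Henseleit buffer. The heparin and PPS arrays hold kidneys that went through both perfusions with low molecular weight heparin or PPS at 10 IU/ml in each fluid. Every array carries 1 equimolar pool of RNA from 3 kidneys, chosen by the submitters for RNA quality. The labels do not tie kidneys to rats. The stated purpose was to examine anti-inflammatory properties of both supplements.

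There was 1 array a side, so no spread between replicates, p-value or interval could be computed for any difference given here. A difference between the pooled kidneys and a difference between the supplements cannot be told apart, and a small difference does not show that the supplements act alike. With 1 array at the floor, a fold is only a bound and is written as "at least".

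Heparin is a highly sulfated glycosaminoglycan that activates antithrombin and binds many chemokines and growth factors. Heparan sulfate, its relative on cell surfaces and in basement membranes, is carried on proteoglycan core proteins such as syndecans and perlecan. Within minutes of reperfusion, kidney cells switch on immediate early genes, which code for transcription factors such as Fos, Jun and Egr proteins, through MAP kinases and serum response factor at CArG boxes, and chemokine genes through NF-kappaB at kappaB motifs. Class I histocompatibility genes, which rat nomenclature calls RT1, present peptides to T cells and many carry kappaB motifs in their promoters.

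The promoters of Egr2, Cxcl2 and 3 class I genes are printed because their differences are among the largest of their groups, and that of Cxcl1 because it is a close relative of Cxcl2 that differed less. They are RefSeq sequences of the rat assembly GRCr8, from 250 bases before to 50 bases after the annotated start, 5′ to 3′ on the gene's strand, and all lie on the minus strand. Capitals mark a CArG box in Egr2 and kappaB motifs in the others but RT1-CE12, which has none, found by a search of both strands for the consensus of each. The Egr2 box lies 83 to 74 bases upstream of the start.
Egr2, chr20:21054392-21054691: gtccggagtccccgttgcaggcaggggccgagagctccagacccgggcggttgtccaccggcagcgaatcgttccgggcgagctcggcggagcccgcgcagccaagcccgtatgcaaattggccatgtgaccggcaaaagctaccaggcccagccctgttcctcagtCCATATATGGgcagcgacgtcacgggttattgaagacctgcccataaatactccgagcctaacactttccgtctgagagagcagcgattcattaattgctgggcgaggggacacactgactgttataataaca
Cxcl2, chr14:17467206-17467505: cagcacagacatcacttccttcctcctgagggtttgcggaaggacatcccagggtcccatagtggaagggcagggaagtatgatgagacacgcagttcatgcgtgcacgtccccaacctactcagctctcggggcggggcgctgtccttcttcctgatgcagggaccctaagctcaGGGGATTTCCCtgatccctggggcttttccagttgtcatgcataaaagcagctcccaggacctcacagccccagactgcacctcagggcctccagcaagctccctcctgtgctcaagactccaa
Cxcl1, chr14:17479272-17479571: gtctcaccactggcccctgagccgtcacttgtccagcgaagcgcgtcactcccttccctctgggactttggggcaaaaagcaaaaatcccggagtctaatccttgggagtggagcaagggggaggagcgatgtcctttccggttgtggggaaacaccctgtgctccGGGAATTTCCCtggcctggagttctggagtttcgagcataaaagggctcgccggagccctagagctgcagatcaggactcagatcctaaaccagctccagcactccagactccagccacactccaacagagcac
RT1-CE5, chr20:3484041-3484340: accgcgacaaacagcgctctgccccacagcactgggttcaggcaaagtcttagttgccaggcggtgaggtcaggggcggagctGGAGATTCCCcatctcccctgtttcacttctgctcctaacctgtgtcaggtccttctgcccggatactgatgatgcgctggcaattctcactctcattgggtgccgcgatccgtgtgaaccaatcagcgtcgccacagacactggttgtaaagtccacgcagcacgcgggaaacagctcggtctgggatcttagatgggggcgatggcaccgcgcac
RT1-CE10, chr20:3384930-3385229: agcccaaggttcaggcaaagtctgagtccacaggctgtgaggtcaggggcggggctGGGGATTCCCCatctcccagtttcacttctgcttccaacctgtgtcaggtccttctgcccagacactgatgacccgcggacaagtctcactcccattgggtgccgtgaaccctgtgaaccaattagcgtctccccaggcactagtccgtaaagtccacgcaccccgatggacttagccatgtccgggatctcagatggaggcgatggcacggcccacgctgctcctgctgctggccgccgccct
RT1-CE12, chr20:3347176-3347475: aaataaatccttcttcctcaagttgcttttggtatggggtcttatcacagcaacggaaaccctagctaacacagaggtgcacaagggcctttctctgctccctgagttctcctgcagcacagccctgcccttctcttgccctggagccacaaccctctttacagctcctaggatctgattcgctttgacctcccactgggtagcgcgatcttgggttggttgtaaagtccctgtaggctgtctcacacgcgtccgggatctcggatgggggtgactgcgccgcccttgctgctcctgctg

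The kappaB motif lies 74 to 64 bases upstream of the start in Cxcl2, where 2 matches overlap, and 84 to 74 bases upstream in Cxcl1, where 2 matches overlap as well. It lies 167 to 158 bases upstream in RT1-CE5 and 194 to 184 bases upstream in RT1-CE10. No match was found in the RT1-CE12 window. Of 33469 promoters of the same length, 548 (1.64%) held a CArG box and 1400 (4.18%) a kappaB motif. The RT1-CE5 and RT1-CE10 promoters were identical at 69.8% of alignment columns, gaps included, RT1-CE5 and RT1-CE12 at 52.1%, RT1-CE10 and RT1-CE12 at 52.4%, and Cxcl2 and Cxcl1 at 58.0%. Unrelated promoters were not aligned in this way, so these shares have no baseline and do not show shared sequence. A match describes the letters and shows no binding. Whether the Wistar rats used here carry the same letters was not tested.

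The heparin and PPS arrays were alike for most genes. The median difference was 0.01 on the log2 scale, 82.1% of genes lay within 0.25 and 96.0% within 0.5, and the SD over genes measured on both arrays was 0.23. By any amount, 4856 genes (51.7%) were higher with heparin, 4087 (43.5%) were lower, and 450 showed no difference. Past 0.5 there were 189 higher and 186 lower genes, and past 2, which is 4-fold, there were 11 genes in both directions. The share past 2-fold depended on the level. It was 1.83% for genes with a mean log2 level under 6, 0.131% between 10 and 12, and 0% at 12 or more. The highest mean level among the 46 genes was 11.6, that of Cndp1.

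**Figure D1:**
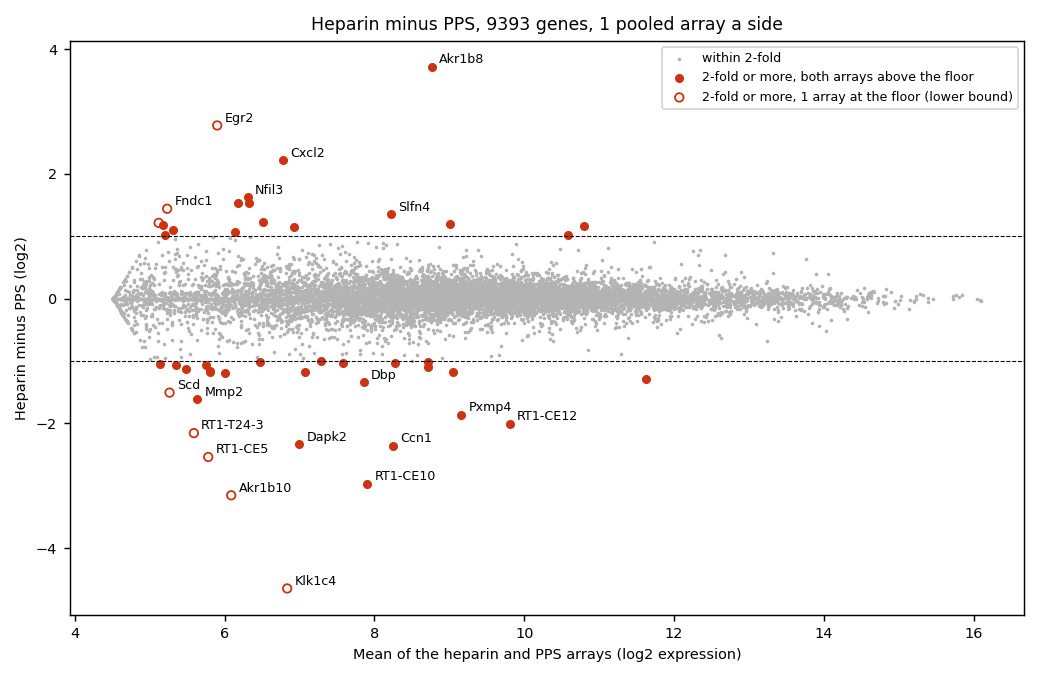
Heparin minus PPS (vertical axis, log2) against the mean log2 level of both arrays (horizontal axis), 1 point for each of 9393 genes. Red points are the 46 genes at or past 2-fold (dashed lines), open where 1 array was at the floor; Akr1b8 at 3.72 and Klk1c4 at -4.65 are the extremes, and no gene with a mean level above that of Cndp1 is past the limit.

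Spiked controls moved in opposite directions on the same arrays. The 24 poly-A control probe sets, added before labelling, had a median difference of 0.18 and 22 were higher on the heparin array. The 18 hybridisation control probe sets, added after labelling, had a median of -0.47 and 0 were higher. Scaling the arrays to the poly-A controls moved the median of all genes to -0.17, and scaling to the hybridisation controls moved it to 0.47. The 2-fold counts were then 12 higher and 54 lower, or 157 higher and 11 lower, so the share of the calls that were higher was 39.1% as deposited, 18.2% and 93.5%. List medians are therefore given beside the median of all genes. A list median within about the size of these shifts can take their sign. Medians under 1 or both scalings are given for the main lists that depart from all genes. The 3' minus 5' difference of beta-actin, a sign of RNA integrity and labelling, was 3.39 with heparin and 3.19 with PPS, and that of GAPDH was 0.72 and 0.81.

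Kidney markers were present on all arrays. On each array 22 of 23 proximal tubule markers and 16 of 17 endothelial markers were above the floor, and 20 or 21 of 22 collecting duct markers. None of 10 adrenal markers was above the floor on any array, and 2 of 13 skeletal muscle markers were.

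Immediate early genes were higher with heparin than with PPS and lower than on the warm array with either supplement. Of 39 listed genes, 38 were on the array and 33 were above the floor on 1 or more arrays. Of these 33, 30 were higher with heparin, 1 was lower and 2 did not differ, with a median of 0.44 against 0.01 over all genes. Past 2-fold, 2 were higher and 1 lower. The median stayed above 0 when the arrays were scaled to the poly-A controls (0.26) or to the hybridisation controls (0.91).

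Egr2, a zinc finger transcription factor of the immediate early class, had log2 values of 2.41 (cold), 9.55 (warm), 7.29 (heparin) and 4.40 (PPS). Both the cold and the PPS values lie under the floor, so Egr2 was at least 6.86-fold higher with heparin. Atf3, a stress-induced transcription factor, had 3.21, 13.04, 11.09 and 10.08 on the cold, warm, heparin and PPS arrays, a difference of 1.01 between heparin and PPS. Its heparin and PPS values both lie far above the cold one and below the warm one.

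Fosb, a partner of Jun in the AP-1 factor, had 2.11, 13.47, 12.18 and 11.27 in the same order of arrays, a difference of 0.92. Nr4a1, an orphan nuclear receptor, had 6.67, 12.04, 10.33 and 9.45, a difference of 0.88. Egr1 had 8.87, 14.02, 13.02 and 12.33, a difference of 0.69. These genes shared the order warm, heparin, PPS, cold, and none of them reached 2-fold between the supplements.

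Fos had 6.93, 14.70, 14.08 and 13.44, a difference of 0.64. Jun had 11.14, 14.57, 13.69 and 12.96, a difference of 0.73. The other 2 probe sets for Jun on the same arrays differed by 0.89 and 0.49, so all 3 gave the same direction. Across the list, 7 other probe sets of 5 genes were above the floor on either array, and 6 were higher with heparin, with a median of 0.49.

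The values of 26 of the 33 genes ran in the order warm, heparin, PPS, cold from highest to lowest, an order held by 584 of all 9393 genes. The median difference from the cold array was 3.04 for warm, 1.52 for heparin and 1.1 for PPS.

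Ccn1 was the exception in the list. It codes for a secreted matricellular protein and is a target of serum response factor and YAP. It had 6.87 (cold), 10.99 (warm), 7.06 (heparin) and 9.42 (PPS), 5.14-fold lower with heparin than with PPS. The heparin value was close to the cold one and the PPS value lay nearer to the warm one.

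**Figure D2:**
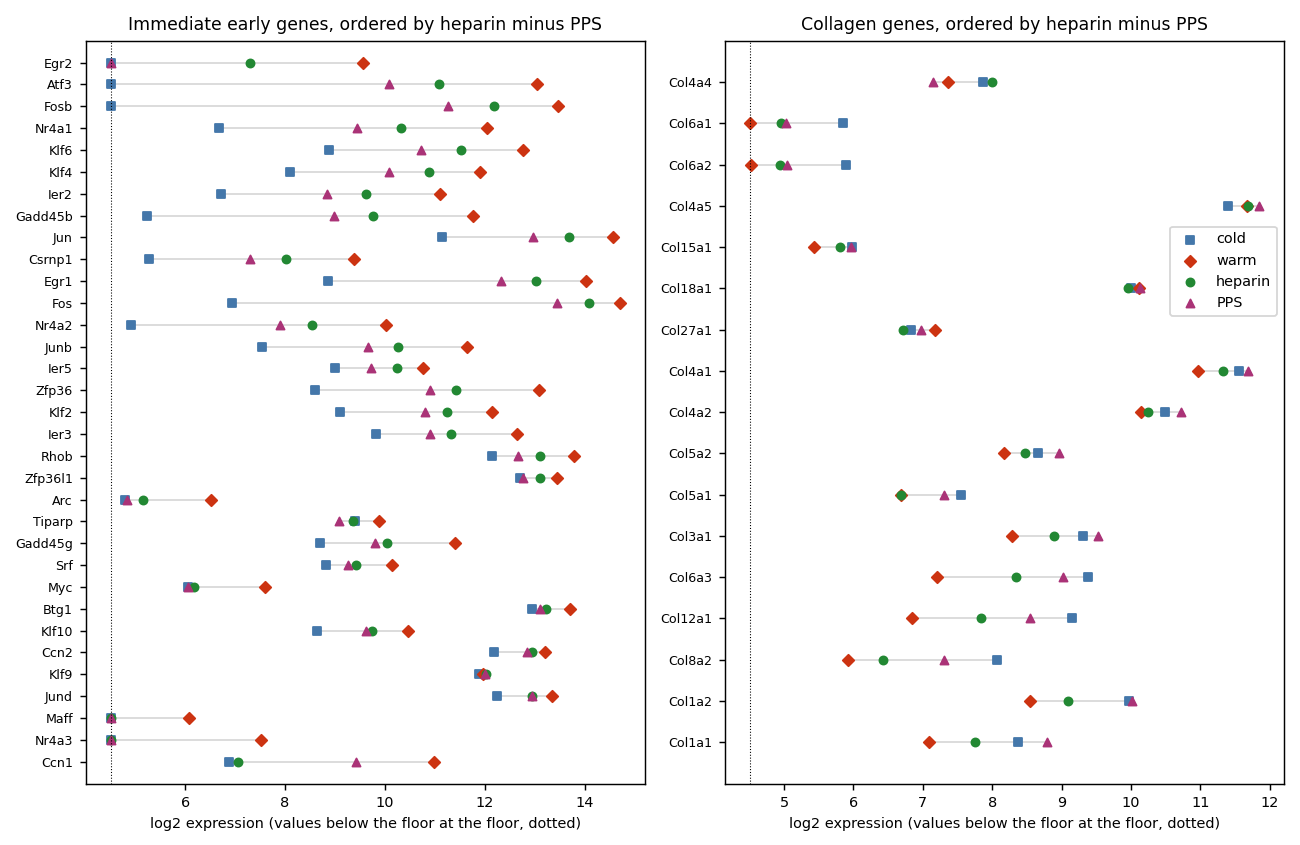
Log2 expression (horizontal axis) on the cold, warm, heparin and PPS arrays, 1 pooled array each, for 33 immediate early genes (left) and 17 collagen genes (right), ordered by heparin minus PPS from top to bottom. Heparin lies to the right of PPS for 30 of 33 early genes and to the left for 16 of 17 collagen genes; scaling to the hybridisation controls brings the collagen median from -0.48 to -0.01.

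Genes that feed back on MAP kinases showed the same direction. Of 23 listed genes, 20 were on the array and 13 were above the floor; 12 were higher with heparin and 1 was lower, none past 2-fold, with a median of 0.23 (0.05 when scaled to the poly-A controls and 0.69 to the hybridisation controls). Dusp1, a phosphatase that switches off MAP kinases, had 8.61, 13.40, 12.63 and 11.88 on the cold, warm, heparin and PPS arrays, a difference of 0.76, and its other probe set differed by 0.34. Rasd1, a Ras-related GTPase, had 5.03, 9.61, 8.58 and 7.73, a difference of 0.86. Plk2, a kinase induced by growth factors, had 5.75, 9.46, 7.92 and 7.10, a difference of 0.82.

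Genes were also chosen on the cold and warm arrays alone. Of the 66 genes (0.703%) that were 4-fold or more higher on the warm than on the cold array, 57 were higher with heparin than with PPS, 7 were lower and 2 did not differ, with a median of 0.47 (0.29 and 0.94 when scaled to the poly-A and the hybridisation controls). The immediate early list makes up 20 of the 66, and of the remaining 46 genes 39 were higher with heparin and 6 lower, with a median of 0.41. Of the 109 genes (1.16%) that were 2-fold or more lower on the warm than on the cold array, 29 were higher with heparin, 75 were lower and 5 did not differ, with a median of -0.28 (-0.45 when scaled to the poly-A controls). Scaling to the hybridisation controls turned that median to 0.14, with 65 higher and 41 lower. As deposited, in the former group the median difference from the cold array was 3.48 for warm, 1.86 for heparin and 1.51 for PPS. In the latter group it was -1.32, -1.02 and -0.77.

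Chemokine genes were split. Of 38 cytokine and chemokine genes on the array, 20 were above the floor on 1 or more arrays; 9 were higher with heparin, 9 were lower and 2 did not differ, and the median was 0.00. The 2 past 2-fold were both higher with heparin and both code for chemokines that attract leukocytes. Cxcl2, which attracts neutrophils, had 2.23, 9.30, 7.89 and 5.67 on the cold, warm, heparin and PPS arrays, 4.65-fold higher with heparin. Ccl3, which attracts monocytes and macrophages, had 3.83, 8.24, 7.13 and 5.89, 2.35-fold higher with heparin.

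The relatives of these genes differed less. Cxcl1, the neighbour of Cxcl2 whose promoter also holds a kappaB motif, had 2.34, 10.05, 7.64 and 7.01, a difference of 0.64. Ccl4, which is closely related to Ccl3, had 4.44, 8.88, 7.47 and 6.75, a difference of 0.73. Cxcl10, an interferon-induced chemokine for T cells, had 4.97, 9.86, 6.56 and 5.93, a difference of 0.63.

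All 5 of these chemokines were lower with either supplement than on the warm array. Ccl20 had 2.87, 8.69, 4.95 and 3.06; its PPS value lay under the floor and its heparin value just above it. Ccl2, the main monocyte chemokine, had 8.48, 9.03, 8.03 and 7.88, a difference of 0.14. Cx3cl1, a membrane-bound chemokine, went the other way, with 10.17, 9.84, 9.63 and 10.30 and a difference of -0.66.

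Of 24 genes for NF-kappaB subunits, inhibitors and feedback regulators on the array, 20 were above the floor; 11 were higher with heparin, 7 were lower and 2 did not differ, none past 2-fold, with a median of 0.01. Nfkbiz, an inducible IkappaB family member, had 6.36, 11.65, 10.20 and 9.48, a difference of 0.72. Nfkbia, the inhibitor that holds NF-kappaB in the cytoplasm, had 9.69, 11.55, 10.66 and 10.07, a difference of 0.59. Tnfaip3, a feedback inhibitor of the pathway, had 6.66, 9.42, 8.48 and 8.02, a difference of 0.46. Bcl3, another IkappaB family member, went the other way, with 5.65, 6.72, 6.38 and 6.77 and a difference of -0.39. The list as a whole was centred where all genes were.

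Endothelial adhesion genes showed little difference. Icam1, an adhesion receptor for leukocytes, had 8.77, 10.74, 9.27 and 9.28, a difference of -0.01. Vcam1 had 8.94, 8.82, 8.20 and 8.40, a difference of -0.20. Of 9 members above the floor, of 16 on the array, 2 were higher, 7 were lower and none passed 2-fold, with a median of -0.04.

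Leukocyte markers were lower with heparin, while Cxcl2 and Ccl3 were higher and the cytokine and chemokine list as a whole was split. Of 27 leukocyte markers on the array, 14 were above the floor on every array and 13, among them Cd3d, Cd4, Cd8a, Ms4a1, Cd68 and S100a8, were under it on all 4; 1 of the 14 was higher with heparin and 13 were lower, with a median of -0.24 (0.23 when scaled to the hybridisation controls). Their summed level on the log2 scale was 15.03 (cold), 15.14 (warm), 14.72 (heparin) and 15.01 (PPS). Their part in the differences was not tested. In whole-kidney RNA, fewer cells of a type and less RNA per cell cannot be told apart.

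Interferon-stimulated genes leaned towards heparin by a small amount. Of 26 on the array, 22 were above the floor; 15 were higher with heparin, 6 were lower and 1 did not differ, with a median of 0.12 that turned to -0.06 when scaled to the poly-A controls. Oasl, an oligoadenylate synthetase-like antiviral protein, had 5.15, 8.82, 5.86 and 4.76, 2.14-fold higher with heparin, and both supplemented values were near the cold one. Slfn4, a Schlafen family gene of myeloid cells that is not in the list, had 8.76, 10.02, 8.89 and 7.54, a difference of 1.35. Isg15, a ubiquitin-like protein, had 7.20, 9.14, 7.76 and 7.29, a difference of 0.48. Mx1, an antiviral GTPase, went the other way with 7.78, 8.5, 7.61 and 8.06 and a difference of -0.45.

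Stress response genes were higher with heparin without passing 2-fold. Of 24 genes of the unfolded protein and integrated stress responses on the array, 22 were above the floor; 19 were higher, 2 were lower and 1 did not differ, with a median of 0.23 (0.05 and 0.70 when scaled to the poly-A and the hybridisation controls). Ppp1r15a, which restarts translation after stress, had 5.70, 10.30, 8.57 and 7.68, a difference of 0.89. Manf, a secreted endoplasmic reticulum stress protein, had 11.42, 10.56, 11.35 and 10.73, a difference of 0.62. Unlike Ppp1r15a, Manf was lowest on the warm array, so the members that differed did not share 1 pattern across the arrays.

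Of 21 heat shock genes on the array, 19 were above the floor; 15 were higher, 3 were lower and 1 did not differ, none past 2-fold, with a median of 0.14 that turned to -0.04 when scaled to the poly-A controls. Hspa1a, the inducible HSP70 chaperone, had 9.87, 14.11, 12.99 and 12.68, a difference of 0.31. Hypoxia response genes (14 higher and 10 lower of 24, median 0.03), NRF2 and glutathione genes (12 higher and 10 lower of 25, median 0.00) and p53 targets (8 higher and 4 lower of 13, median 0.02) were centred where all genes were. Cdkn1a, the p53-induced cell cycle inhibitor, had 6.94, 8.82, 6.86 and 6.85, a difference of 0.01.

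**Figure D3:**
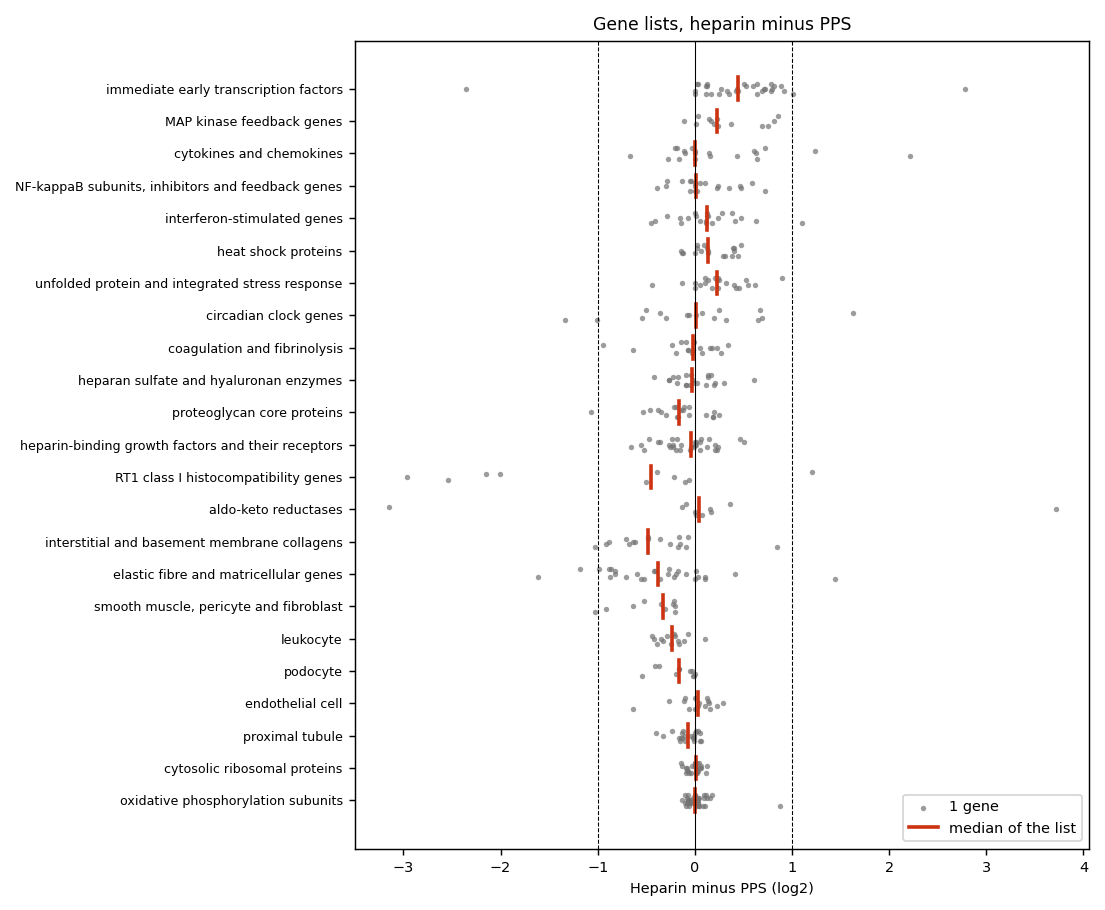
Heparin minus PPS (horizontal axis, log2) for the members of 23 gene lists that were above the floor on 1 or more arrays, 1 grey point a gene, with the list's median in red and 2-fold as dashed lines. Immediate early genes have a median of 0.44 and collagens of -0.48; ribosomal protein and oxidative phosphorylation genes are centred at 0.01 and 0.00. Scaling to the poly-A or hybridisation controls moves the median of all genes by -0.17 or 0.47.

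Clock genes differed in both directions. Of 17 on the array, all above the floor, 9 were higher with heparin and 8 lower, with a median of 0.01, and 1 passed 2-fold upwards and 2 downwards. Nfil3, a repressor that binds D-boxes, had 7.12, 8.26, 7.12 and 5.50, 3.09-fold higher with heparin. Dbp, an activator that binds the same boxes, had 7.22, 7.75, 7.19 and 8.53, 2.53-fold lower with heparin. Both genes showed heparin and cold values close together, with PPS apart.

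Per3, a period gene, had 6.17, 6.79, 6.79 and 7.79, a difference of -1.0. The period gene Per2 was on the other side, with 10.08, 9.22, 9.52 and 8.85 and a difference of 0.67. Transcriptional repressors differed in both directions. Cry1 had 6.86, 6.44, 6.52 and 5.84, a difference of 0.69. Bhlhe40 had 8.66, 8.74, 8.75 and 8.10, a difference of 0.65. Nr1d2 differed by -0.51, Nr1d1 by -0.36, Bhlhe41 by -0.29 and Cry2 by -0.08.

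Collagen genes were lower with heparin than with PPS. Of 22 on the array, 17 were above the floor; 1 was higher and 16 were lower, 1 of them past 2-fold, with a median of -0.48 (-0.66 and -0.01 when scaled to the poly-A and the hybridisation controls). The 5 other probe sets of 5 collagen genes above the floor were all lower, with a median of -0.37. Col1a1, a chain of type I collagen, had 8.38, 7.08, 7.75 and 8.79 on the cold, warm, heparin and PPS arrays, 2.05-fold lower with heparin. Col1a2, the other chain, had 9.97, 8.54, 9.09 and 10.01, a difference of -0.91, and its other probe set differed by -0.88.

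Col3a1, a fibrillar collagen of vessels and interstitium, had 9.31, 8.29, 8.89 and 9.53, a difference of -0.64. Col8a2 had 8.07, 5.92, 6.42 and 7.30, a difference of -0.88. Col4a4, a basement membrane chain, was the member that was higher, with 7.87, 7.36, 7.99 and 7.15 and a difference of 0.84. In 12 of the 17 genes PPS was highest of the warm-perfused arrays and warm lowest, with cold above warm, a pattern held by 946 of all 9393 genes. The median difference from the cold array was -0.86 for warm, -0.42 for heparin and 0.04 for PPS.

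Other matrix genes followed. Of 41 elastic fibre and matricellular genes on the array, 28 were above the floor; 6 were higher, 21 were lower and 1 did not differ, with a median of -0.38 (-0.56 when scaled to the poly-A controls, turning to 0.08 with the hybridisation controls). Mmp2, a gelatinase that degrades basement membrane collagen, had 5.85, 4.59, 4.83 and 6.44, 3.06-fold lower with heparin. Olfml3, a secreted olfactomedin-like protein, had 7.60, 4.20, 5.41 and 6.60, 2.28-fold lower. Aebp1, a collagen-binding secreted protein, had 10.19, 9.53, 8.46 and 9.65, 2.27-fold lower.

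Smoc2, a secreted SPARC family protein, stayed just short of 2-fold with 8.13, 5.17, 8.0 and 8.99, a difference of -0.99. Cygb, a globin of stellate and perivascular cells, had 9.09, 6.38, 7.37 and 8.25, a difference of -0.88. Fndc1 was the member that was higher past 2-fold, with 3.29, 2.62, 5.96 and 3.06, at least 2.72-fold, because only the heparin value was above the floor.

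Markers of smooth muscle, pericytes and fibroblasts, the cells that make much of this matrix, were lower with heparin as well. Of 17 on the array, 10 were above the floor on every array and 7 (Cnn1, Des, Rgs5, Notch3, Lum, Actg2 and Synpo2) were under it on all 4; 0 of the 10 were higher and 10 were lower, with a median of -0.33 (-0.51 when scaled to the poly-A controls, turning to 0.14 with the hybridisation controls). Their summed log2 level was 13.19 (cold), 12.22 (warm), 12.42 (heparin) and 12.89 (PPS). The list holds Col1a1, Col1a2 and Col3a1, so it is not separate from the collagen list. Pdgfra, a receptor of interstitial fibroblasts, had 10.79, 9.81, 10.06 and 10.59, a difference of -0.53. The part of these markers in the matrix differences was not tested.

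Class I histocompatibility genes held several of the largest differences. Of 38 listed RT1 class I genes, 11 were on the array and 10 were above the floor. With heparin 1 was higher and 9 were lower, 4 of them past 2-fold. The median was -0.45 (-0.54 and -0.21 when scaled to the poly-A and the hybridisation controls). It lies midway between RT1-A3 and RT1-CE16. The heparin value of RT1-A3 (3.48) was under the floor, so scaling left its difference of -0.50 unchanged. The negative median after scaling to the hybridisation controls therefore rests on the floor. RT1-CE10 had 9.41, 9.86, 6.42 and 9.38 on the cold, warm, heparin and PPS arrays, 7.81-fold lower with heparin. RT1-CE12 had 10.74, 11.24, 8.80 and 10.81, 4.02-fold lower. RT1-CE5 had 7.88, 7.47, 2.97 and 7.05, at least 5.81-fold lower, and its other probe set above the floor differed by -1.69.

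In these 3 genes the heparin array stood apart, while cold, warm and PPS were close to each other. RT1-T24-3 had 5.16, 6.16, 4.42 and 6.67, at least 4.45-fold lower with heparin. RT1-T24-4 was the member that was higher, with 8.99, 9.47, 9.61 and 8.41 and a 2.30-fold difference. RT1-CE16 had 10.73, 10.99, 10.44 and 10.84, a difference of -0.40 that did not reach the limit.

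The RT1 genes are a family of related genes, and which member gives the signal of a probe set was not tested. The probe sets of RT1-CE10, RT1-CE12, RT1-CE16 and RT1-T24-4 carry the suffix _x_at, which marks probes shared with other transcripts. Their differences may therefore not belong to the named gene alone. Leaving out shared-probe sets over all genes kept 41 of the 46 calls and lost 5. Over 15 class I probe sets with 1 gene symbol above the floor, 1 was higher and 14 were lower, with a median of -0.41. A class I probe set annotated with 2 RT1 symbols had 11.77, 12.65, 2.93 and 12.36, so only the heparin array was under the floor, and the difference from the floor was -7.85.

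The partners of class I proteins did not share the difference. B2m, the invariant light chain of class I molecules, had 14.65, 14.65, 14.61 and 14.58, a difference of 0.03. Tap1, which carries peptides to class I molecules, had 6.98, 7.77, 7.16 and 7.12, a difference of 0.04. Psmb8, an immunoproteasome subunit, had 7.37, 7.66, 7.33 and 7.62, a difference of -0.29. Over 12 such genes above the floor, of 14 on the array, 8 were higher, 4 were lower and none passed 2-fold, with a median of 0.05.

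For class II genes, which present peptides to helper T cells, probe sets of 1 gene disagreed in RT1-Bb and RT1-Ba. RT1-Bb had 12.50, 12.39, 12.66 and 11.96 on its brighter probe set, a difference of 0.70, and 7.97, 9.54, 2.61 and 10.90 on the other, a difference of -6.38 with the heparin value raised to the floor. RT1-Ba had 11.74, 11.57, 12.17 and 11.86 on its brighter probe set, a difference of 0.31, and 9.62, 10.46, 5.28 and 10.01 on another, a difference of -4.74. The dimmer probe sets of these 2 genes were low on the heparin array alone. RT1-Db1 went the other way, with 11.11, 11.50, 11.69 and 11.44 on its brighter probe set, a difference of 0.25, and 9.20, 9.29, 10.89 and 9.63 on the other, a difference of 1.26. Of 8 genes above the floor, 5 were higher and 3 were lower by their brightest probe set, with a median of 0.14 that turned to -0.04 when scaled to the poly-A controls. Cd74, the chaperone of class II molecules, had 14.07, 14.24, 13.72 and 14.16, a difference of -0.44.

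**Figure D4:**
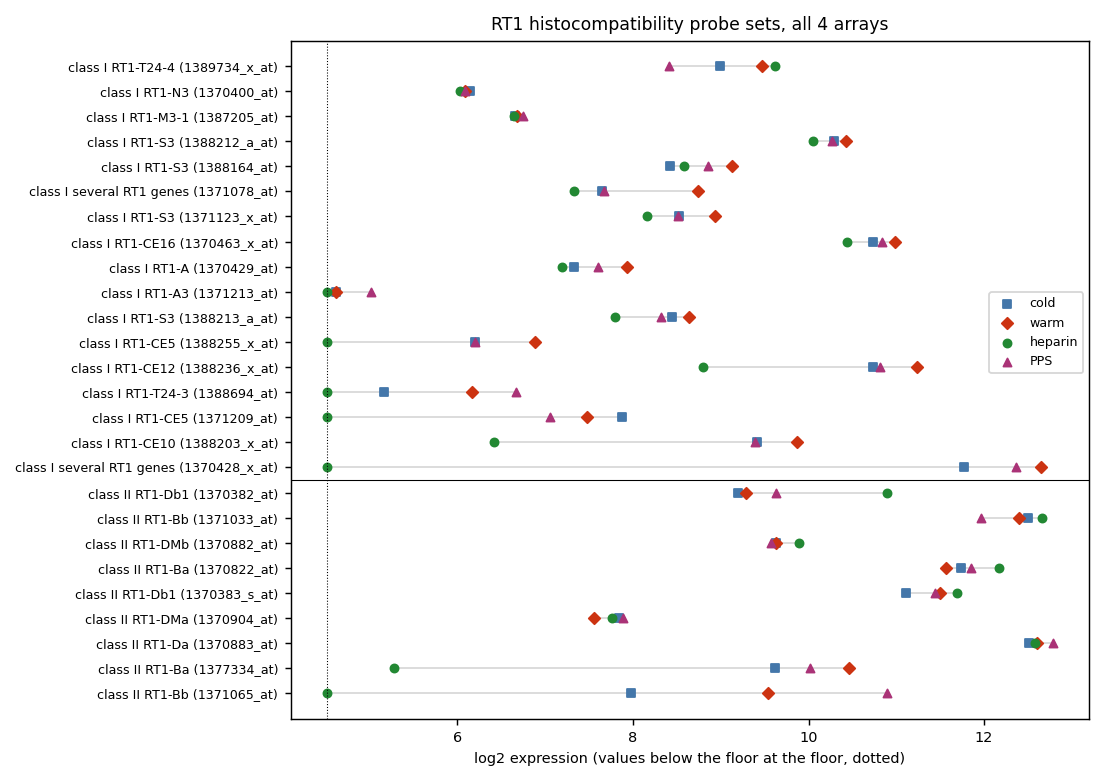
Log2 expression (horizontal axis) on the cold, warm, heparin and PPS arrays for 17 class I (above the line) and 9 class II (below the line) RT1 probe sets above the floor, 1 line each, ordered within class by heparin minus PPS; values under the floor are drawn at it. Heparin lies apart to the left for the lowest class I probe sets and for 2 class II probe sets, with differences of -6.38 and -4.74 for the latter.

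The aldo-keto reductase and kallikrein families each held a member that stood apart on the heparin array. Akr1b8, an aldo-keto reductase that reduces reactive aldehydes, had 8.13, 6.41, 10.62 and 6.91 on the cold, warm, heparin and PPS arrays, 13.2-fold higher with heparin. Akr1b10, of the same subfamily, had 8.23, 6.25, 3.98 and 7.67, at least 8.89-fold lower with heparin. Its other probe set had 6.78, 5.47, 6.02 and 5.27, a difference of 0.75 in the opposite direction. Of 10 aldo-keto reductases above the floor, of 15 on the array, the other 8 differed by at most 0.36, the value of Akr1c1, and the median was 0.04.

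Klk1c4, a tissue kallikrein, which is a serine protease of tubules and glands, had 10.72, 8.93, 3.50 and 9.16, at least 25-fold lower with heparin. It has 1 probe set, and the heparin value alone was under the floor. Klk1, the renal kallikrein that releases kinins, had 12.96, 13.22, 12.31 and 12.94, a difference of -0.63, and Klk1b3 had 14.03, 14.65, 13.77 and 14.29, a difference of -0.52. All 4 kallikreins above the floor, of 11 on the array, were lower, with a median of -0.70 that kept its sign under both scalings (-0.79 and -0.36). Kallikreins and aldo-keto reductases are gene families too, and which member gives each signal was not tested.

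Tubular enzymes and transporters differed one by one. Cyp2c11, a steroid-hydroxylating cytochrome P450, had 11.15, 10.75, 11.38 and 10.21, 2.24-fold higher with heparin. Slc22a7, an organic anion transporter, had 6.57, 6.59, 5.22 and 6.39, 2.26-fold lower. Cndp1, the dipeptidase that splits carnosine, had 12.18, 11.20, 10.98 and 12.27, 2.45-fold lower.

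Cyp2c11 was lowest with PPS, Slc22a7 was low with heparin alone, and Cndp1 was low on both the warm and the heparin arrays. Rdh16, a retinol dehydrogenase, had 9.79, 8.43, 8.17 and 9.27, 2.15-fold lower. Pxmp4, a peroxisomal membrane protein, had 10.88, 10.11, 8.23 and 10.09, 3.63-fold lower, and its other probe set differed by -1.47. Dapk2, a kinase linked to cell death and autophagy, had 9.76, 8.82, 5.83 and 8.16, 5.04-fold lower.

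Pxmp4 and Dapk2 were low on the heparin array alone. Scd, which makes monounsaturated fatty acids, had 2.97, 7.08, 2.97 and 6.02, at least 2.84-fold lower, with cold and heparin under the floor. Ucp2, a mitochondrial carrier, had 7.55, 8.07, 7.07 and 8.09, 2.03-fold lower. Gadl1, a decarboxylase related to that of glutamate, had 6.28, 5.56, 7.09 and 5.56, 2.88-fold higher, and Kif5c, a kinesin motor, had 6.02, 5.30, 6.95 and 5.42, 2.90-fold higher.

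Lists of tubular and metabolic genes were centred near 0; of the genes just named, only Slc22a7, Ucp2 and Scd are members of one. Phase I and II enzymes had 12 higher and 11 lower of 25 (median 0.00), Slc22 transporters 5 and 9 of 14 (median -0.09), fatty acid genes 11 and 13 of 24 (median -0.03) and sterol and lipid synthesis genes 9 and 10 of 19 (median 0.00). Oxidative phosphorylation subunits had 20 higher and 19 lower of 39 (median 0.00). Slc22a13, an organic anion transporter that was higher with both supplements, had 5.29, 6.10, 9.26 and 9.57, a difference of -0.31 between them.

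Over the lists for coagulation, heparan sulfate enzymes, proteoglycan cores and heparin-binding growth factors, only Sdc3 passed 2-fold. Of 32 coagulation and fibrinolysis genes on the array, 18 were above the floor; 7 were higher, 11 were lower and none passed 2-fold, with a median of -0.02. Serpine2, a thrombin inhibitor whose action heparin speeds up, had 7.65, 3.83, 6.57 and 7.52, a difference of -0.95. Vwf, the platelet-binding factor of endothelium, had 9.42, 8.47, 7.83 and 8.47, a difference of -0.64. Tfpi, which inhibits the tissue factor pathway, had 9.52, 9.47, 9.43 and 9.50, a difference of -0.07.

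Of 31 genes for heparan sulfate and hyaluronan enzymes on the array, 22 were above the floor; 9 were higher, 13 were lower and none passed 2-fold, with a median of -0.03. Hs3st1, which adds the sulfate that antithrombin recognises, had 6.22, 6.62, 6.74 and 6.13, a difference of 0.60. Ndst1, which starts sulfation of the chain, had 6.28, 6.31, 6.01 and 6.43, a difference of -0.42. Ext1, which builds the chain, had 9.40, 9.63, 9.63 and 9.51, a difference of 0.11.

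Of 29 proteoglycan core proteins on the array, 20 were above the floor; 5 were higher and 15 were lower, with a median of -0.16 that turned to 0.29 when scaled to the hybridisation controls. The member past 2-fold was Sdc3, a syndecan, with 5.53, 4.66, 4.82 and 5.89, 2.10-fold lower with heparin and not far above the floor on any array. Hspg2, the basement membrane core protein perlecan, had 5.45, 5.98, 5.64 and 6.02, a difference of -0.38. Sdc1 had 6.57, 6.44, 6.49 and 6.68, and Sdc4 had 13.65, 13.91, 13.53 and 13.65, with differences of -0.19 and -0.12. All 4 of these core proteins were lower with heparin, with differences between -1.07 and -0.12. Sdc2, another syndecan, went the other way with 12.60, 12.46, 12.60 and 12.49, a difference of 0.11. Its other probe sets differed by 0.12 and 0.18.

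Of 40 heparin-binding growth factors and their receptors on the array, 33 were above the floor; 14 were higher, 18 were lower and 1 did not differ, none past 2-fold, with a median of -0.05. Hbegf, an EGF-like growth factor named for its binding to heparin, had 4.80, 7.36, 5.57 and 5.06, a difference of 0.50. Egfr, its receptor, had 7.85, 6.40, 5.30 and 5.96, a difference of -0.66. The other Egfr probe set above the floor had 5.82, 6.22, 6.35 and 5.90, a difference of 0.44 in the opposite direction. Vegfa had 12.10, 12.43, 12.12 and 12.13, a difference of -0.01, and Lpl, a lipase that heparin releases from vessel walls, had 12.33, 12.47, 11.93 and 11.92, a difference of 0.02.

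Among complement genes, C1r, a protease of the C1 complex, had 9.16, 7.72, 8.16 and 8.86, a difference of -0.69, and C1s had 10.89, 9.22, 9.94 and 10.46, a difference of -0.52. Of 13 above the floor, of 24 on the array, 6 were higher and 7 were lower, with a median of -0.06. Hbb, a globin chain of red blood cells, had 9.85, 8.71, 8.20 and 9.22, 2.03-fold lower with heparin. Slc4a1, the red cell anion exchanger, and Itga2b, a platelet integrin, both differed by 0.10, so 2 of the 3 red blood cell and platelet markers above the floor were higher and 1 was lower. Slc4a1 is also in the collecting duct list. Its other probe set had 8.78, 9.27, 8.58 and 8.76, a difference of -0.18 in the opposite direction. The other 6 of 9 on the array (Alas2, Ahsp, Epb42, Pf4, Ppbp and Gp9) were under the floor. The summed log2 level of all 9 was 11.09, 11.08, 10.68 and 10.86. Car3, an enzyme abundant in fat cells, had 8.77, 8.26, 6.49 and 7.67, 2.27-fold lower. Fabp4, a fat cell and endothelial fatty acid carrier, had 9.07, 9.70, 8.42 and 9.37, a difference of -0.95. Of 11 fat cell markers on the array, 5 were above the floor, of which Cidec (0.10) and Lpl (0.02) were higher and 3 were lower. Their median was -0.30, smaller in size than the hybridisation control shift of -0.47. The other 6 (Adipoq, Lep, Plin1, Cfd, Ucp1 and Slc36a2) were under it on all 4. Over all 11 fat cell markers the summed log2 level was 12.88, 13.06, 12.49 and 12.62. The part of fat cell markers in these differences was not tested.

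Nephron markers differed by small amounts. Of 22 proximal tubule markers above the floor, 5 were higher and 17 were lower with heparin, with a median of -0.07. Of 14 loop and distal markers 3 were higher and 11 were lower (median -0.12), of 21 collecting duct markers 6 and 14 (median -0.05), of 16 endothelial markers 9 and 6 (median 0.04), and of 11 podocyte markers 0 and 11 (median -0.16). None of these passed 2-fold, and all but the endothelial median turned positive when scaled to the hybridisation controls, while the endothelial median turned to -0.14 with the poly-A controls. Nphs1, the slit diaphragm protein nephrin, had 8.94, 10.00, 9.30 and 9.84, a difference of -0.54. Scnn1a, a sodium channel subunit of the collecting duct, had 8.55, 9.36, 8.29 and 8.90, a difference of -0.61, and Aqp2, its water channel, had 13.52, 13.59, 13.52 and 13.12, a difference of 0.40.

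**Figure D5:**
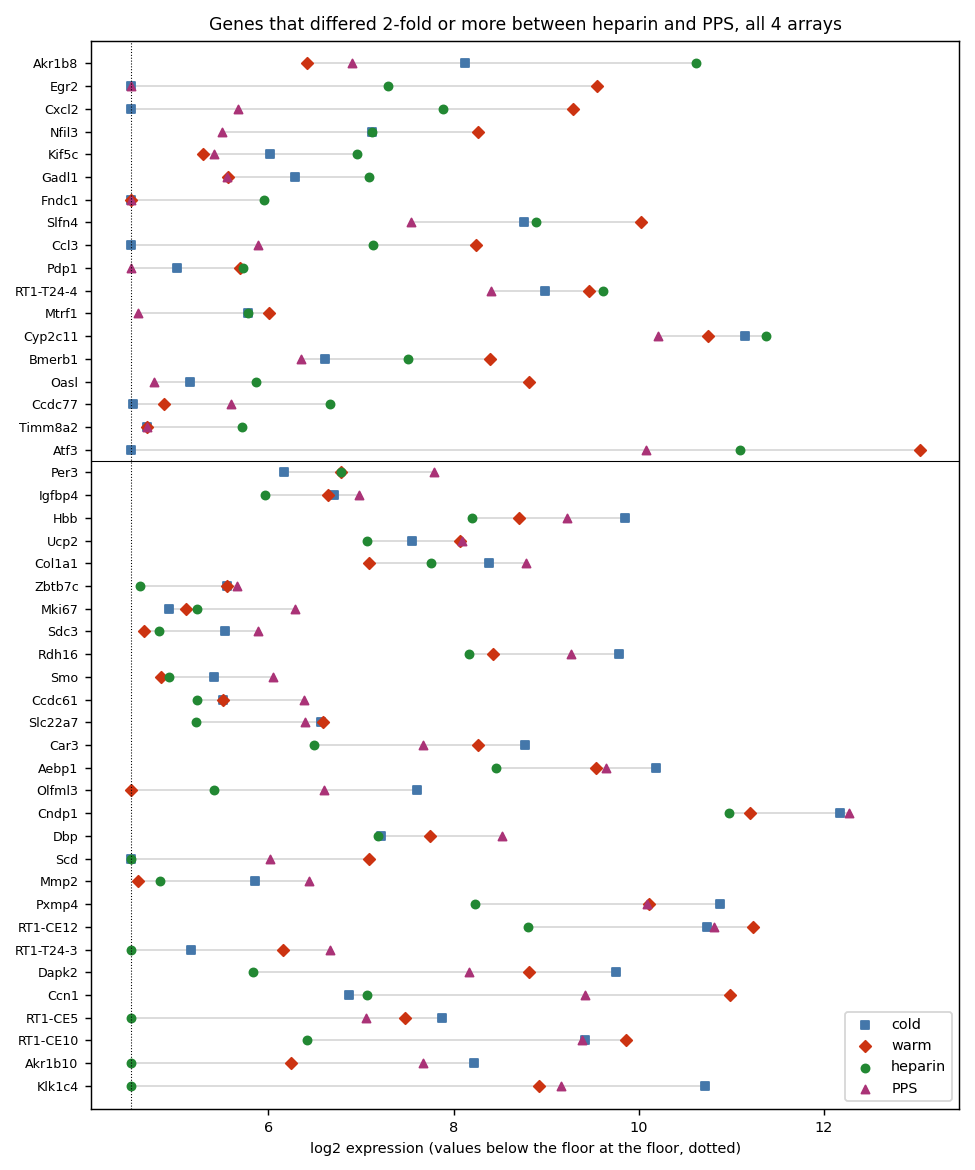
Log2 expression (horizontal axis) on the cold, warm, heparin and PPS arrays for the 46 genes that differed 2-fold or more, 18 higher with heparin above the line and 28 lower below it, 1 line a gene; values under the floor are drawn at it. Heparin stands apart from the other arrays for 17 genes, among them Akr1b8, Klk1c4 and RT1-CE10, and PPS for 7, among them Nfil3 and Dbp.

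The position of the warm array differed among the 46 genes. Of the 18 genes higher with heparin, warm lay above both supplemented arrays in 9, between them in 6 and below both in 3. Of the 28 lower genes, warm lay above both in 9, between them in 13 and below both in 6. An array was counted as standing apart where its distance to the nearest other array exceeded the range of the remaining 3. The heparin array did so for 17 genes (6 higher and 11 lower), the PPS array for 7 (2 higher and 5 lower), the warm array for 1 (Oasl) and the cold array for 1 (Atf3), and no array did for 20.

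At the limit of 2-fold, the genes just inside were Per3 at -1.0 and Atf3 at 1.01, and the genes just outside were Smoc2 at -0.99 and Shfl at 0.98. Only 3 other probe sets of the 46 genes were above the floor on either array; those of Pxmp4 and RT1-CE5 gave the same direction past 2-fold, and that of Akr1b10 gave the opposite one. Most of the 46 genes therefore rest on 1 probe set.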

How the data were processed

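The report uses 2 of 4 Affymetrix rat arrays and gives the other 2 beside them. The authors deposited 1 log2 value for each probe set and array; GCRMA, which corrects background, normalizes and summarises probes, is named per the submitters' processing notes (version not given in the sources used here). No header states the scale, and log2 was inferred from a range of 2.11 to 16.4. GCRMA gives all arrays nearly the same distribution, so a change in total messenger RNA would not be seen, and arrays have no read depth: their number limits the precision.

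Of 31099 probe sets, 57 controls were left out. The platform annotation gives 1 gene symbol for 20832 probe sets and several for 436, and 9780 are unnamed here; 20764 symbols were matched to the RefSeq annotation of GRCr8 through Entrez identifiers. For each of 14217 genes the probe set brightest on average over all 4 arrays stood for the gene, and values under the 50th percentile of the whole table (4.51) were set to that floor. The 9393 genes that passed it somewhere were kept, of which 9239 were above it on both supplemented arrays, 47 were at it on heparin only, 37 on PPS only and 70 on both. A gene was called where heparin and PPS differed by 1 or more on the log2 scale (2-fold). No test was made, since each group has 1 array; the script was tested on simulated data.

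Gene lists, the named-gene rule and the members were chosen with earlier results of these data known. The rule names up to 25 called genes per direction above the floor on both arrays, up to 10 with 1 array at it, each list's called members and its 4 largest differences, and a set of fixed genes, of which Havcr1, Lcn2, Sulf1, Hpse and Fgf2 were not measured above the floor; a further fixed gene is not reported here. Genes shown at the limit, genes named by a second probe set and markers under the floor lie outside it and were chosen after their values were seen. Alternatives were no floor, a floor of 6, all arrays above the floor, no filter, scaling to either control set, centring by the median or by lowess, other choices of probe set and other size limits. Python 3.11.15 with pandas 2.3.3, numpy 2.4.6, statsmodels 0.14.6, Biopython 1.88 (promoter alignment) and matplotlib 3.10.9 was used.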

Additional observations from a re-analysis of the deposited data

Results flagged for a closer look

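Akr1b10 was the only called gene that differed 2-fold or more from the warm array in opposite directions with the supplements: heparin minus warm was -1.73, bounded by the floor, and PPS minus warm was 1.42, so that heparin minus PPS was -3.15. The difference was not tested, and the other probe set of Akr1b10 gave 0.75.

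Of 9780 probe sets with no gene symbol in the annotation, which the comparison of genes does not use, 3203 were above the floor and 37 (1.16%) differed 2-fold or more, 21 higher and 16 lower with heparin. The largest difference had 7.51 (cold), 6.29 (warm), 8.54 (heparin) and 3.53 (PPS), a difference of 4.03 with PPS at the floor. The lowest had 8.22, 7.79, 6.73 and 9.44, a difference of -2.71.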

How the results depend on the processing

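As deposited, 18 genes were higher and 28 lower with heparin. With a floor of 6 the counts were 11 and 17, with a size limit of 1.5-fold 121 and 131, and with 3-fold 4 and 10. Scaling to the poly-A controls gave 54 lower genes, scaling to the hybridisation controls gave 157 higher and 11 lower, and counting every probe set on its own gave 43 lower. Of the 46 called genes, 5 (Akr1b8, Ccn1, Gadl1, Nfil3 and Pxmp4) were called under all 11 alternatives that keep the 2-fold limit and 1 value per gene. No call that an alternative shared with the deposited scaling changed sign. Such a change needed a move from past 2-fold in 1 direction to past 2-fold in the other. The poly-A and hybridisation control shifts were 0.18 and -0.47 on the log2 scale, so scaling to them could not produce it. With no floor the counts were 27 and 34, and with all arrays above the floor 12 and 22; the other alternatives stayed within 1.5 times. Averaging the probe sets of a gene turned the median of class II genes from 0.14 to -0.16. No paired analysis was possible because each group has 1 array, and leaving out an array leaves no comparison. The medians of genes chosen on the warm and cold arrays were recomputed under the same alternatives, chosen after seeing the data. Signal near background limits the low genes: 1.83% of genes with a mean level under 6 passed 2-fold, against 0.294% of those at 8 to 10.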

Other observations

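Other probe sets of genes that were not called held further differences, and these genes were chosen after their values were seen. Of 2835 other probe sets above the floor on either supplemented array, 24 passed 2-fold. Over all 12280 probe sets with 1 symbol above the floor, 0.57% did. Genes that were not called held 22 of the 24. Of these 22, 9 were higher and 13 lower with heparin, and the brighter probe set of the gene went the same way in 15. Mx2, an antiviral GTPase, had 2.78 (cold), 11 (warm), 3.60 (heparin) and 9.76 (PPS) on such a probe set, a difference of -5.25 with heparin at the floor, and 7.52, 8.13, 7.66 and 8.06 on its brighter one, a difference of -0.41. Both probe sets put Mx2 lower with heparin, opposite to Oasl and Isg15. Ythdf2, a reader of methylated RNA, had 9.55, 9.62, 6.89 and 9.69, a difference of -2.81, and its brighter probe set differed by 0.38. Fnip2, a partner of folliculin, had 8.79, 8.20, 9.77 and 7.57, a difference of 2.20, and its brighter probe set differed by 0.56.

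Proliferation genes, of which 12 of 23 on the array were above the floor, were 2 higher, 8 lower and 2 without difference, with a median of -0.10. Mki67, a marker of cycling cells, had 4.93, 5.11, 5.23 and 6.29, 2.09-fold lower with heparin, and Cdk1, a mitotic kinase, had 4.80, 4.63, 5.44 and 5.94, a difference of -0.50. All these values are near the floor. Proteasome subunits were 23 higher and 7 lower of 30, with a median of 0.06. The medians of the proliferation and proteasome lists are both smaller in size than the shifts of the spiked controls.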
